A study of Mus musculus with 6 samples.

Results

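The nuclear pore complex is the protein channel that spans the nuclear envelope, and its mRNAs were followed here in mouse islets of Langerhans, which hold the hormone-making cells of the pancreas. Its genes were taken by symbol: the numbered Nup genes, Nupl1 and Nupl2, Pom121, Tpr, Ndc1, Rae1, Seh1l, Sec13, Aaas and Ranbp2. This gave 30 of the 24407 genes counted, and the rule reads symbols only, not expression values. The islets came from 70-week-old C57BL/6 mice on regular chow, of 2 genotypes. WT mice carried wild-type lamins, and lmna LCS mice, here called LCS, expressed lamin C as their only product of the lamin A/C gene, as the series title states. Each genotype had 3 libraries of polyadenylated RNA, and each library was a pool of islets from 3 mice, so the spread between libraries is a spread between pools. The sources used here do not say how the LCS allele was made, which sex the mice were or whether WT mice were littermates. The question the design poses for these genes is whether their mRNA levels differ between islets with the usual mix of A-type lamins and islets with lamin C alone.

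The pore is built from many copies of about as many different proteins as there are genes in the list. A Y-shaped complex forms its outer rings, an inner ring lies against the membrane, membrane proteins anchor it, and FG-repeat proteins fill the central channel. Filaments reach into the cytoplasm, where mRNA is released and Ran cycles, and a basket reaches into the nucleus. Pores sit within the nuclear lamina, the mesh of lamins under the inner nuclear membrane, and the basket protein Nup153 binds lamins. Import receptors (importins), export receptors (exportins) and the small GTPase Ran carry proteins and RNA through the channel. Scaffold subunits are very long-lived in non-dividing cells, so mRNA and protein can differ, and protein was not measured here.

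The libraries differed between genotypes in ways beside the pore genes. Total counts were 41529670 to 68036676 in LCS and 26123654 to 34483948 in WT. Entries dominated by ribosomal RNA (Rn45s, Lars2 and Mir6236) took 52.3% to 54.1% of counts in LCS and 7.64% to 18.5% in WT. Levels below are CPM, counts scaled to a common library size with TMM factors. By mean CPM among all genes, Ins2 had rank 2, Ins1 rank 4 and Gcg rank 6. The means in WT and LCS were 87436 and 135420 CPM for Ins2, 44158 and 53587 CPM for Ins1, and 13911 and 17475 CPM for Gcg. Markers of beta cells, the insulins among them, summed to 175311 to 263797 CPM in LCS and 147933 to 172357 CPM in WT, with no overlap. Of the 10 beta cell markers, 6 were higher in LCS and 4 lower, and 0 had an adjusted p under 0.05 by edgeR. Markers of alpha, delta and PP cells summed to 21611 to 29769 CPM in LCS and 15132.5 to 18106 CPM in WT, with no overlap, among them Ppy at 2479 and 683 CPM and Sst at 1845 and 619.9 CPM (means of LCS and WT). Exocrine acinar markers summed to 513.7 to 912.5 CPM in LCS and 143.5 to 229.4 CPM in WT, and 16 of the 17 tested were higher in LCS at an adjusted p under 0.05 by edgeR. Duct markers summed to 838 to 1040 CPM in LCS and 504 to 938 CPM in WT, leukocyte markers to 81.7 to 100.3 and 58.6 to 67.6 CPM, endothelial markers to 172 to 205 and 147 to 180 CPM, and fibroblast and stellate markers to 32.2 to 57.2 and 22.5 to 94.6 CPM. None of the 5 lists of other cells held a gene at 0 in all libraries. The part of depth, ribosomal entries, endocrine makeup and other cells in the pore results was not tested. Lamin A and lamin C mRNAs share 1 count per gene, so Lmna could not serve as a check of the genotype.

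No pore gene passed the test for a difference between LCS and WT islets. All 30 were expressed above the filter on low counts, with raw counts per library from 6 for Nup210l to 8289 for Ranbp2. By edgeR's quasi-likelihood test with Benjamini-Hochberg adjustment over the 14539 genes tested, 0 of 30 had an adjusted p under 0.05, where 2.21% of all genes did (2.06% higher in LCS and 0.144% lower). At an unadjusted p under 0.05, 4 pore genes were lower in LCS (Nup153, Seh1l, Ranbp2 and Nup160) and 0 were higher, against 10.8% and 13.3% of all genes. DESeq2's Wald test called 1 pore gene, Nup153, where it called 10.4% of all genes, and limma-voom called 0. In bulk islets, fewer cells of a type and less RNA per cell cannot be told apart.

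As a group the pore genes lay close to the middle of all genes. Their median log2 fold change, LCS minus WT, was −0.07, where that of all tested genes was 0.01. Of the 30, 20 had a value below 0 and 10 above, with a range from −0.66 for Nup210l to 0.21 for Rae1. Of all 14539 tested genes, 7105 had a value below 0 and 7434 above. Summed over the 30 genes, the 3 LCS libraries had 820, 907 and 762 CPM, in replicate order, and the WT libraries 873, 970 and 1014 CPM. These sums overlapped, since LCS replicate 2 stood above WT replicate 1. As a share of counts outside the ribosomal entries, without TMM factors, they did not overlap: 0.123%, 0.142% and 0.105% in LCS and 0.149%, 0.157% and 0.165% in WT. The total behind this share includes the hormone mRNAs, which were higher in LCS, and their part in the separation was not tested. The libraries of LCS lay wholly below those of WT for 2 genes, Nup153 and Nup93, and wholly above for 2 others, Nup88 and Sec13. Over all genes such separation was seen for 12.0% lower and 14.6% higher.

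**Figure D1:**
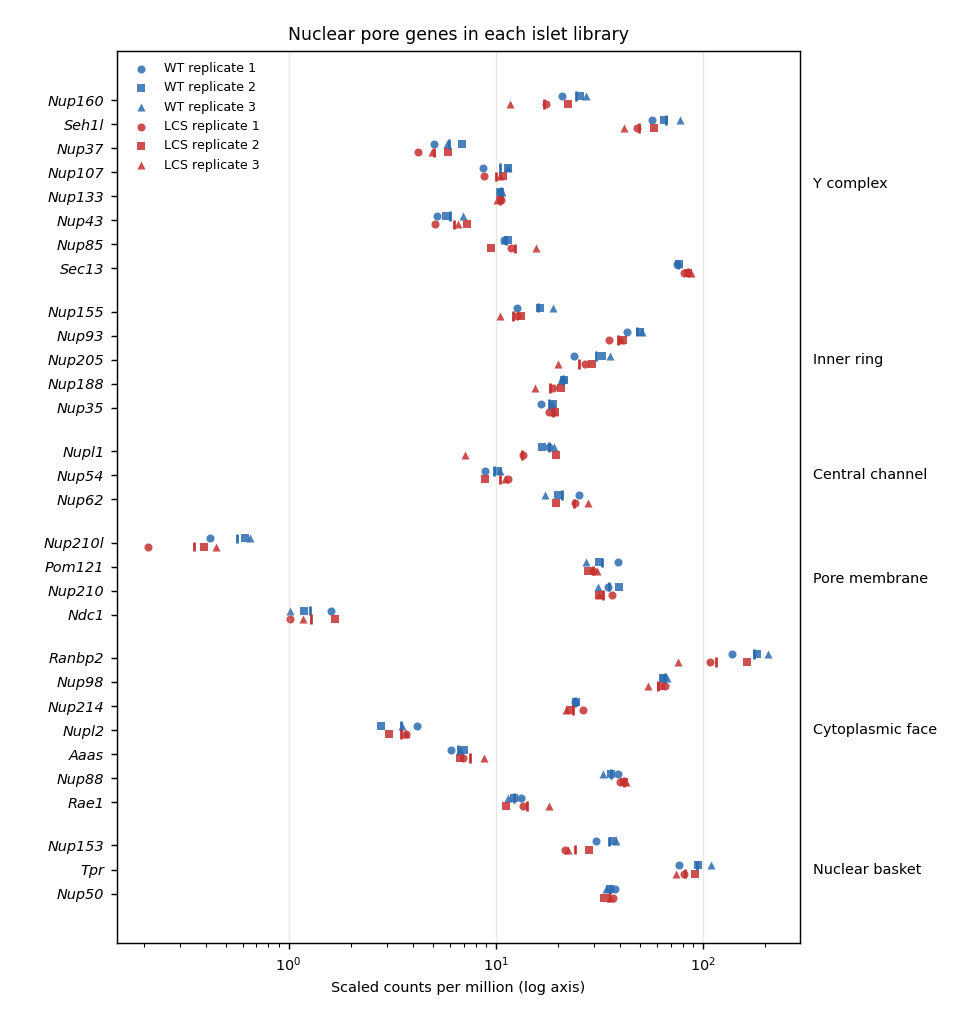
Scaled CPM (log axis) of each nuclear pore gene in every library, with WT in blue, LCS in red, 1 symbol per replicate and vertical bars at the group means. Genes run from Nup210l, under 1 CPM in each library, to Ranbp2, and groups are apart only for Nup153, Nup93, Nup88 and Sec13.

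The intervals give the range of fold changes that the 6 libraries allow for each gene. They are set gene by gene, without adjustment for the number of genes tested, so they do not show which changes would have been called. They also take no account of transcript length or GC content. The 95% interval of the fold change lay inside 2-fold either way for 26 of 30 genes and inside 1.5-fold for 16. The 4 genes whose interval passed 2-fold were Nup160, Nup210l, Nupl1 and Ranbp2. The 16 within 1.5-fold included members of each structural group, among them Nup107, Nup133, Nup188, Nup35, Nup54, Nup210, Nup214, Nup98 and Tpr.

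**Figure D2:**
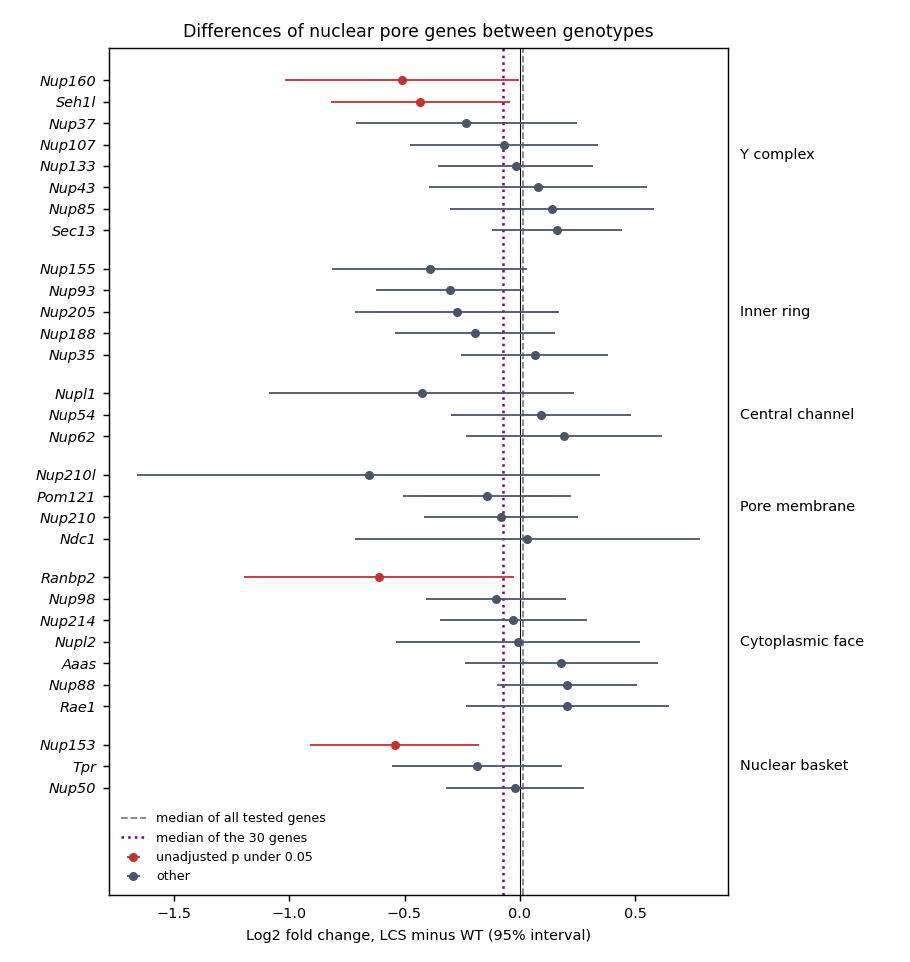
Difference of each nuclear pore gene as a log2 fold change (LCS minus WT) with its 95% interval, grouped by place in the pore, with genes at an unadjusted p under 0.05 in red. Dashed and dotted lines mark the medians of all tested genes (0.01) and of the 30 genes (−0.07), and intervals for 26 genes lie inside 2-fold.

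The nuclear basket held the pore gene with the smallest p. Nup153 (NCBI gene 218210), which anchors the basket and binds lamins, had 30.5, 36.9 and 38.1 CPM in WT replicates 1 to 3 and 21.7, 28.2 and 22.4 CPM in LCS. Every LCS library lay below every WT library, and the nearest pair was LCS replicate 2 and WT replicate 1. The means were 35.2 ± 4.09 CPM in WT and 24.1 ± 3.55 CPM in LCS (SD, n = 3 each). The log2 difference was −0.54 (SE 0.16, 95% interval −0.91 to −0.18), with an adjusted p of 0.102 by edgeR. DESeq2 gave −0.57 with an adjusted p of 0.0350, and leaving out WT replicate 1 gave −0.63 with an adjusted p of 0.0227 by edgeR, a setting in which 20.2% of all genes were called.

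The other basket genes had overlapping groups. Tpr (108989), the coiled-coil protein that forms the basket fibres, had 93.8 ± 16.4 CPM in WT and 82.3 ± 8.82 CPM in LCS. Its log2 difference was −0.19 (SE 0.17, adjusted p = 0.509 by edgeR). Nup50 (18141), a mobile partner of Nup153 and of importin alpha, had 35.8 ± 1.94 CPM in WT and 35.3 ± 1.70 CPM in LCS, a log2 difference of −0.02 (95% interval −0.32 to 0.28). So the 3 basket genes ranged from near 0 for Nup50 to −0.54 for Nup153, with a median of −0.19, which turned to 0.11 with an offset for transcript length.

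On the cytoplasmic face, Ranbp2 (19386) was the pore gene with the most counts. It encodes the giant filament protein Nup358, a SUMO ligase that docks Ran and its GTPase-activating protein. Its levels were 138, 184 and 208 CPM in WT and 108, 163 and 75.8 CPM in LCS. The groups overlapped, because LCS replicate 2 stood above WT replicate 1. The log2 difference was −0.61 (SE 0.26, 95% interval −1.19 to −0.02, adjusted p = 0.195 by edgeR). It was −0.91 without LCS replicate 2 and −0.37 without LCS replicate 3, so its size rested on which LCS pool was used. Ranbp2 alone made up 15.8% to 20.5% of the summed pore CPM in WT and 9.95% to 17.9% in LCS.

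Nup88 (19069) stood on the other side. It holds Nup214 and Nup98 at the cytoplasmic ring, and it is named after its values were seen because its groups did not overlap. It had 38.9, 36.2 and 33.0 CPM in WT and 40.0, 41.8 and 42.8 CPM in LCS, a log2 difference of 0.20 (SE 0.14, adjusted p = 0.382 by edgeR). Its partner Nup214 (227720) had 24.2 ± 0.100 CPM in WT and 23.7 ± 2.46 CPM in LCS, a log2 difference of −0.03 with a 95% interval of −0.35 to 0.29. Nup98 (269966), whose precursor also yields the scaffold protein Nup96, had 65.5 ± 1.61 and 60.9 ± 5.98 CPM, a log2 difference of −0.10.

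The other genes of the cytoplasmic face did not pass the test either. Rae1 (66679), the beta-propeller that binds Nup98 and RNA, had 12.3 ± 0.914 CPM in WT and 14.2 ± 3.50 CPM in LCS, and its LCS libraries ran from 11.2 to 18.1 CPM, on both sides of WT. Aaas (223921), which encodes the WD-repeat protein ALADIN, had 6.61 ± 0.478 and 7.496 ± 1.08 CPM. Nupl2 (231042), which helps the export helicase on the cytoplasmic side, had 3.49 ± 0.686 and 3.48 ± 0.380 CPM. Their log2 differences were 0.21, 0.18 and −0.01, and the median over the 7 cytoplasmic genes was −0.01.

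The Y complex is the largest scaffold unit, and its 8 genes had a median log2 difference of −0.04, with 5 below 0. Seh1l (72124), a beta-propeller that the Y complex shares with the GATOR complex of nutrient sensing, had 57.1, 65.2 and 77.3 CPM in WT and 48.0, 58.2 and 41.6 CPM in LCS. Only LCS replicate 2 reached into the WT range. The log2 difference was −0.43 (SE 0.17, 95% interval −0.82 to −0.04, adjusted p = 0.172 by edgeR). Nup160 (59015), at the arms of the Y, had 20.9, 25.5 and 27.2 CPM in WT and 17.5, 22.3 and 11.7 CPM in LCS, again with LCS replicate 2 inside the WT range. Its log2 difference was −0.51 (SE 0.23, adjusted p = 0.205 by edgeR), and it was −0.29 without LCS replicate 3 and −0.72 without LCS replicate 2.

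Sec13 (110379), which also coats COPII vesicles that leave the endoplasmic reticulum, had the opposite sign. Like Nup88 it is named after its values were seen. It had 74.8, 77.0 and 75.7 CPM in WT and 81.3, 85.2 and 87.8 CPM in LCS, so the groups were apart. The log2 difference was 0.16 (SE 0.13, 95% interval −0.12 to 0.44, adjusted p = 0.456 by edgeR), and it turned to −0.23 once fold changes were offset for transcript length.

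The remaining Y genes had overlapping groups. Nup133 (234865), at the stem, had 10.6 ± 0.156 CPM in WT and 10.4 ± 0.238 CPM in LCS, and its stem partner Nup107 (103468) had 10.5 ± 1.60 and 10.03 ± 1.10 CPM. Nup43 (69912) had 6.00 ± 0.889 and 6.32 ± 1.10 CPM. Nup85 (445007), which binds Seh1l, had 11.2 ± 0.302 and 12.3 ± 3.12 CPM, and its LCS libraries ran from 9.49 to 15.7 CPM. Nup37 (69736), a beta-propeller bound to Nup160, had 5.92 ± 0.906 and 5.02 ± 0.834 CPM. Their log2 differences ran from −0.23 for Nup37 to 0.14 for Nup85.

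Promoter sequence is shown for the 4 pore genes that stand at the ends of the pattern: Nup153 and Ranbp2, with the smallest p at the nuclear and cytoplasmic faces, and Nup88 and Sec13, whose LCS libraries were all above WT. The windows are the 250 bases before the annotated start, from RefSeq on GRCm38.p6, written 5′ to 3′ on the gene's strand. That build differs from mm9, the build of the counts, and no count coordinate was used. Capitals mark matches, on either strand, to GGGCGG (the GC box of Sp and Klf factors), CCGGAA (the ETS core), CCAAT (the box bound by NF-Y), TGACG (a cAMP response half-site), TATAAA (the TATA box), GCATGCGC (the NRF1 core) and AANATGGC (the YY1 core). A match on the other strand appears as its reverse complement, and 4 of the GC boxes of Nup88 overlap, each sharing a base with its neighbour.
Nup153, chr13:46727850-46728099, minus strand: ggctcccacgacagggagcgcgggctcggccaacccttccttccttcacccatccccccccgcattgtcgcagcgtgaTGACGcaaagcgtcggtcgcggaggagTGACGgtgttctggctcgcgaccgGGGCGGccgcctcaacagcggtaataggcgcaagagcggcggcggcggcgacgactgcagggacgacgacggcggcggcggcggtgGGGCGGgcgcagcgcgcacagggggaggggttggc
Ranbp2, chr10:58446602-58446851, plus strand: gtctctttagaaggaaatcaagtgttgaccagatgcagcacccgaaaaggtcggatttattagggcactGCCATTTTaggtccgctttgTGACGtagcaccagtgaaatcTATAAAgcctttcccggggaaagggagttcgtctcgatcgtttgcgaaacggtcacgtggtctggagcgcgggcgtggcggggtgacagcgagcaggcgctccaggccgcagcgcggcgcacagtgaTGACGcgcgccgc
Nup88, chr11:70969974-70970223, minus strand: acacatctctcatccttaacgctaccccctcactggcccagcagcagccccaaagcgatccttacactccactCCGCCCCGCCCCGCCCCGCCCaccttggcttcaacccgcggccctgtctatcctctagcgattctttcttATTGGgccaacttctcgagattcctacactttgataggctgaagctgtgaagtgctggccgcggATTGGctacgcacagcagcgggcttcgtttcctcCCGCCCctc
Sec13, chr6:113740682-113740931, minus strand: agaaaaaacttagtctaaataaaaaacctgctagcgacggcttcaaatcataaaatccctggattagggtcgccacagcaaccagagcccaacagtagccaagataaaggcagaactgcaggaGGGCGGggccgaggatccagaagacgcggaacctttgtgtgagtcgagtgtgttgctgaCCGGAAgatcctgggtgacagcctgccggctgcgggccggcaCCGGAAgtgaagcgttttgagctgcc

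These windows were unlike each other. Nup153 had 37 CpG pairs and 73.2% GC, with 2 cAMP half-sites and 2 GC boxes, and no other pore window had as many CpG pairs. Ranbp2 had 25 CpG pairs, a TATAAA, a YY1 match and 2 cAMP half-sites, the last 13 bases before the start. Nup88 had 16 CpG pairs, 5 GC boxes and 2 CCAAT boxes. Sec13 had 14 CpG pairs, 1 GC box and 2 ETS cores. No motif was held by all 4.

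Windows were found for 25 of the 30 genes, 28 windows in all, and Nup210l, Nup35, Nup43, Nup85 and Seh1l had none. The pore windows held a median of 21 CpG pairs and 63.6% GC, against 15 and 59.2% in the windows of tested protein-coding genes. The GC box was in 57.1% of pore windows and 55.6% of those of tested genes. The shares were 42.9% and 25.2% for the cAMP half-site, 28.6% and 19.9% for the ETS core, 42.9% and 34.6% for CCAAT, 10.7% and 3.99% for the NRF1 core, 10.7% and 4.10% for YY1, and 10.7% and 6.87% for TATAAA. Over all 32851 windows of the table, the GC box was in 32.7%, the cAMP half-site in 17.8%, the ETS core in 12.0%, CCAAT in 33.8%, the NRF1 core in 2.26%, YY1 in 3.91% and TATAAA in 12.4%. With 28 windows from 25 genes these shares describe letters in a window and are no count of bound sites.

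The inner ring had a median of −0.27 over 5 genes, with 4 below 0. This was the lowest of the 6 structural groups as fitted, but not with offsets for sequence: the inner ring then had −0.0955 (length) and −0.0433 (length and GC content), and the Y complex −0.26 and −0.19. Nup93 (71805), the linker that holds the ring to the channel, had 42.9, 49.99 and 51.1 CPM in WT and 35.1, 41.1 and 40.4 CPM in LCS. Its groups did not overlap, with WT replicate 1 the nearest to LCS. The log2 difference was −0.30 (SE 0.14, 95% interval −0.62 to 0.02, adjusted p = 0.229 by edgeR). Nup155 (170762), which touches the membrane, had 16.0 ± 3.18 CPM in WT and 12.2 ± 1.48 CPM in LCS, a log2 difference of −0.39 (SE 0.19, adjusted p = 0.241 by edgeR). The large scaffold genes Nup205 (70699) and Nup188 (227699), paralogs that each bind Nup93, had log2 differences of −0.27 and −0.19. Nup188 had 21.1 ± 0.350 CPM in WT and 18.4 ± 2.67 CPM in LCS, and its groups no longer overlapped under DESeq2's size factors. Nup35 (69482), which bends membrane, had 18.1 ± 1.30 and 18.9 ± 0.764 CPM and was the 1 inner ring gene with a value above 0.

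The central channel genes differed in sign, and none passed the test. Nupl1 (71844), also known as Nup58, had 18.1, 16.8 and 19.2 CPM in WT and 13.5, 19.5 and 7.11 CPM in LCS. Its LCS values spread from below to above the whole WT range, and the log2 difference was −0.43 (SE 0.30, 95% interval −1.09 to 0.24, adjusted p = 0.401 by edgeR). It was −0.11 without LCS replicate 3 and −0.79 without LCS replicate 2. Its partners in the channel trimer had values above 0: Nup54 (269113) had 9.84 ± 0.877 and 10.5 ± 1.42 CPM, and Nup62 (18226) had 20.8 ± 3.96 and 23.8 ± 4.14 CPM. Their log2 differences were 0.09 and 0.19. So the 3 genes of 1 trimer had differences of both signs, each with an interval that included 0.

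Of the membrane proteins, Nup210l (77595), a relative of Nup210 known mainly from testis, had the lowest fold change of all 30 and the fewest counts. It had 0.416, 0.617 and 0.653 CPM in WT and 0.210, 0.393 and 0.447 CPM in LCS, from 6 to 25 counts per library. LCS replicate 3 reached into the WT range. Its log2 difference was −0.66 (SE 0.45, 95% interval −1.66 to 0.35, adjusted p = 0.393 by edgeR). Ndc1 (72787), the conserved anchor in the pore membrane, was also low, with 29 to 85 counts per library, and had 1.27 ± 0.300 CPM in WT and 1.29 ± 0.341 CPM in LCS. Pom121 (107939), needed for assembly of pores in interphase, had 32.5 ± 5.97 and 29.5 ± 1.399 CPM, and Nup210 (54563) had 35.1 ± 4.06 and 33.2 ± 2.71 CPM. Their log2 differences were −0.14 and −0.08.

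Levels per kilobase of transcript allow the genes to be ranked within the pore. On this scale Sec13 was highest in WT, at 56.1 CPM per kb, and Seh1l second, at 25.5 CPM per kb. Both proteins also serve complexes outside the pore. Ranbp2 (18.4 CPM per kb), Nup93 (17.1), Nup98 (16.5) and Nup88 (14.7) came next in WT. The median over the 30 genes was 4.998 CPM per kb in WT and 4.59 in LCS. At the low end Ndc1 stood at 0.277 CPM per kb and Nup210l at 0.0989 in WT. The order was much the same in LCS, with a Spearman correlation of 0.947 between group means over 30 genes, which all come from the same 6 libraries. The largest shift of rank was 8 places, for Nup153, from 13 in WT (5.75 CPM per kb) to 21 in LCS (3.95 CPM per kb). Ranbp2 went from 3 to 7 and Nup88 from 6 to 3. Many neighbours in the order did not differ beyond their spread: in WT, Nup93 (17.1 ± 1.59 CPM per kb) and Nup98 (16.5 ± 0.406 CPM per kb) overlapped, as did Ranbp2 (18.4 ± 3.67 CPM per kb) with each of them.

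The fold changes of pore genes ran with the length and base composition of their transcripts, as they did in protein-coding genes at large. Over the 30 genes the Spearman correlation of the log2 fold change was −0.60 with length and 0.45 with GC content, and over 13657 tested protein-coding genes it was −0.54 and 0.47. These are descriptions across genes of the same libraries, which are not independent replicates. Pore transcripts were longer than usual, with a median of 3578 nt against 2930 nt, and lower in GC, with 48.0% against 50.5%. Of the 14 pore genes of 4000 nt or more, 13 had a value below 0, with a median of −0.19. Of the 4118 protein-coding genes of that length, 3105 were below 0, with a median of −0.24. The 6 pore genes under 2000 nt had a median of 0.12, with 1 below 0. The 3784 protein-coding genes of that length had a median of 0.39, with 676 below 0.

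The 4 pore genes with an unadjusted p under 0.05 all had a GC content under 46%. Their lengths were 9608 nt for Ranbp2, 6109 nt for Nup153, 5684 nt for Nup160 and 2613 nt for Seh1l. The 11 pore genes under 46% GC had a median of −0.39, and the 3566 protein-coding genes in that range had a median of −0.28. At an unadjusted p under 0.05 by edgeR, 4 of these 11 pore genes were lower in LCS, and 909 of these 3566 genes were. From 46% to 50% GC, 318 of 2916 protein-coding genes and 0 of 10 pore genes were lower at that threshold. From 50% upward, 262 of 7175 protein-coding genes and 0 of 9 pore genes were. Of 6 pore genes both long and low in GC, 5 were below 0, with a median of −0.45. Of the 1419 protein-coding genes of that kind, 1261 were below 0, with a median of −0.43.

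**Figure D3:**
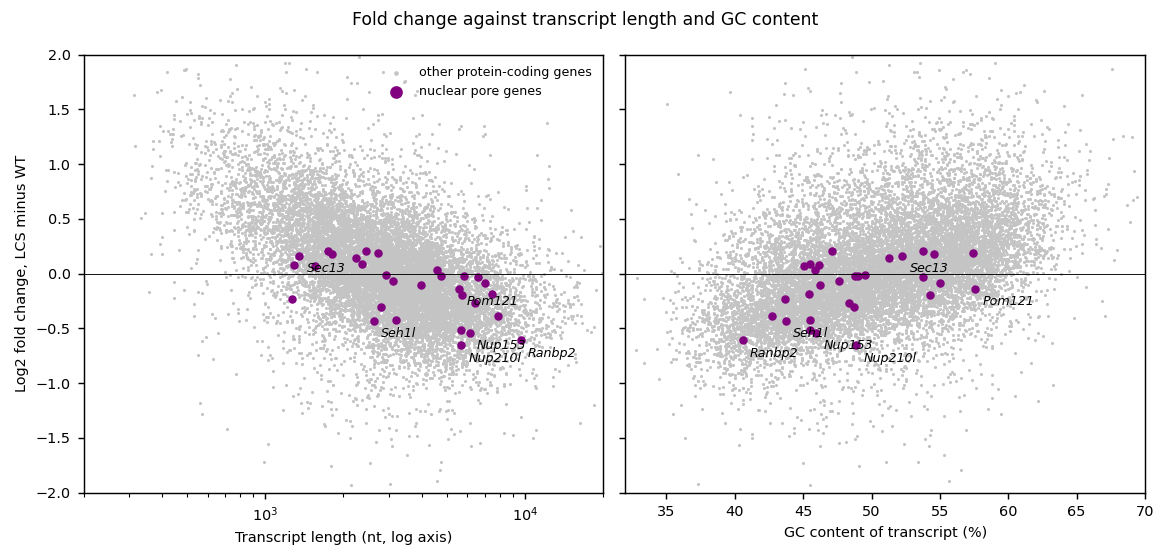
Log2 fold change, LCS minus WT, against transcript length (left, log axis) and GC content (right), with nuclear pore genes in purple over the other tested protein-coding genes in grey. The vertical axis ends at 2 either way and genes beyond it are not drawn; the 30 pore genes follow the cloud, with Spearman correlations of −0.60 for length and 0.45 for GC content.

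Offsets fitted to this trend over all protein-coding genes moved many pore genes. With an offset for length the median of the 30 genes was −0.02, and 14 of 30 changed sign. Adding GC content to the offset gave −0.03, and 13 changed sign. Nup153 moved from −0.54 to −0.28 and −0.22, Nup160 from −0.51 to −0.28 and −0.22, and Ranbp2 from −0.61 to −0.33 and −0.11. Seh1l, which is shorter, stayed at −0.46 with the length offset and had −0.27 with both. Tpr turned from −0.19 to 0.11 and 0.19. Nup88 kept its sign, at 0.16 and 0.25, and Nup93 stayed at −0.30 and −0.25. Nup37, the shortest pore transcript at 1272 nt and named after its values were seen, had the lowest value with the length offset, −0.66, and −0.42 with both. No pore gene was called under either offset. At an unadjusted p under 0.05, Seh1l and Nup37 were lower with the length offset, where 8.65% of all genes were. Seh1l, Nup37 and Nup93 were lower with both, where 8.85% of all genes were, and 0 were higher under either.

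**Figure D4:**
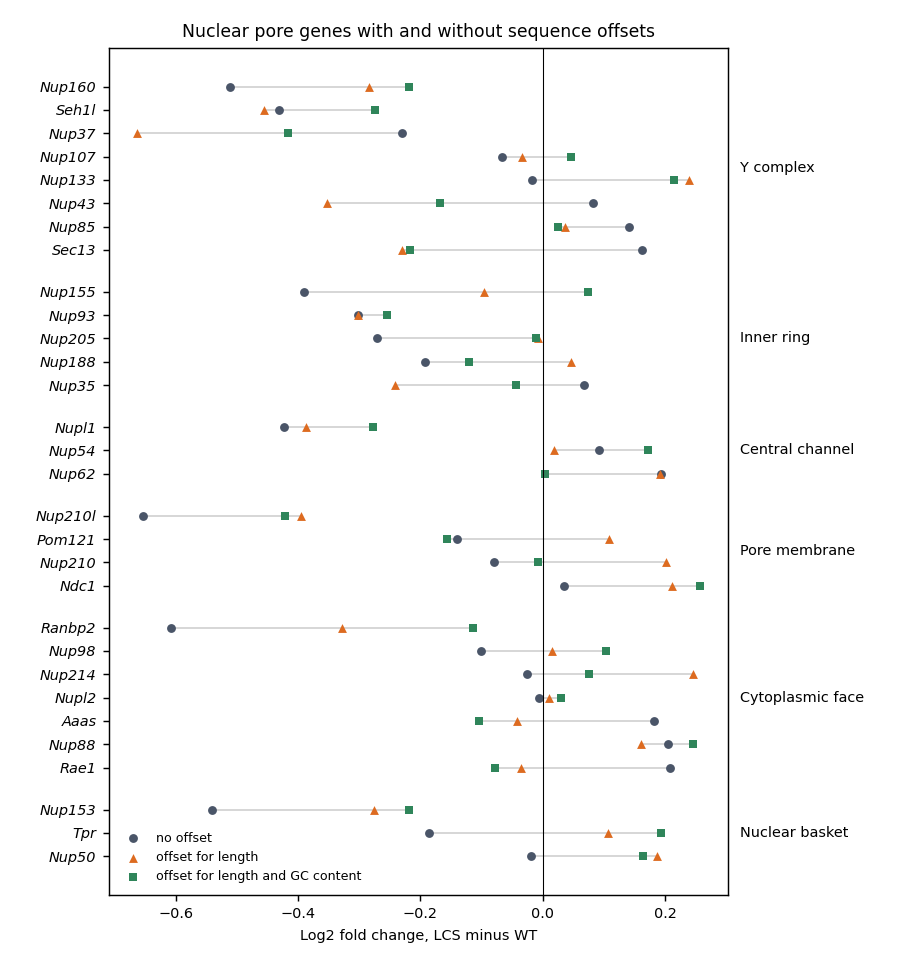
Difference of each nuclear pore gene as a log2 fold change (LCS minus WT) as fitted (circles), after a length offset (triangles) and after an offset that also takes in GC content (squares). Ranbp2 moves from −0.61 to −0.11 and Sec13 from 0.16 to −0.22, while Nup88 and Nup93 keep their side of 0.

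The partners of the pore gave the same count of calls and a wider range of fold changes. Of 64 listed transport and pore-bound genes, 60 were tested and edgeR called 0. For the counts by sign below, 7105 of all 14539 tested genes had a value below 0 and 7434 above. At an unadjusted p under 0.05, 8 stood higher in LCS and 9 lower, where 13.3% and 10.8% of all genes did, with a median log2 difference of −0.01. DESeq2's Wald test called 3 higher (Ran, Ranbp1 and Nxt1) and 4 lower (Tnpo2, Xpo1, Thoc2 and Nxf1, the last named after its values were seen), where it called 10.4% of all genes. Not tested were Pom121l2, with 1 count in 1 library, Kpna7, with 0 counts, and Hikeshi and Ddx39a, which had no entry under those symbols.

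Import receptors had more values below 0 than above. Of 17 tested, 12 had a value below 0 and the median was −0.26, and 4 were lower at an unadjusted p under 0.05. Tnpo2, transportin 2, which imports RNA-binding proteins, had 109 ± 17.6 CPM in WT and 62.9 ± 14.0 CPM in LCS, with no overlap. Its log2 difference was −0.79 (SE 0.19, adjusted p = 0.0649 by edgeR), and it had an adjusted p of 0.00525 by DESeq2. Tnpo1, its paralog, had the lowest value of the list, −0.91 (SE 0.40, adjusted p = 0.204 by edgeR), with overlapping groups. Its transcript measured 8449 nt, and it is named after its values were seen. The importin alpha genes Kpna4 and Kpna3, adaptors for classical import signals, had −0.46 and −0.47, with adjusted p of 0.189 and 0.197 by edgeR. With the length and GC offset they were at −0.13 and −0.0348, while Tnpo2 was at −0.72.

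Export receptors had a median of −0.32 over 8 genes, with 6 below 0. Xpo1, the receptor for leucine-rich export signals, had 67.8 ± 12.6 CPM in WT and 41.0 ± 11.5 CPM in LCS. Its log2 difference was −0.72 (SE 0.22, adjusted p = 0.107 by edgeR), and no LCS library reached the WT range. It was −0.23 with the length and GC offset. Xpo7 had −0.42 (adjusted p = 0.148 by edgeR), also with no overlap, and −0.22 with that offset. Phax, the adaptor for small nuclear RNA export, went the other way, with 13.8 ± 0.615 CPM in WT and 19.4 ± 1.497 CPM in LCS, a log2 difference of 0.49 (adjusted p = 0.0994 by edgeR), or 0.26 with that offset.

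The Ran cycle stood on the high side, with a median of 0.54 over 6 genes and 5 above 0. Ran had 98.5, 75.0 and 60.0 CPM in WT and 99.9, 127 and 132 CPM in LCS. The groups were apart by the small gap between WT replicate 1 and LCS replicate 1, and the log2 difference was 0.62 (SE 0.20, adjusted p = 0.113 by edgeR). Ranbp1, a cofactor of GTP hydrolysis on Ran, had 30.4, 12.6 and 10.2 CPM in WT and 28.2, 45.1 and 39.4 CPM in LCS. WT replicate 1 stood above LCS replicate 1, and the log2 difference of 1.08 (SE 0.37, adjusted p = 0.126 by edgeR) became 1.72 without WT replicate 1 (adjusted p = 0.000948). With the length and GC offset Ran was at 0.65 and Ranbp1 at 0.68. Rangrf, a small Ran-binding protein, had a log2 difference of 0.60 (adjusted p = 0.169 by edgeR), which turned to −0.0898 with the length offset. Ranbp1 and Rangrf transcripts measured 1085 nt and 820 nt, and those of Tnpo2 and Xpo1 measured 4874 nt and 5026 nt.

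The mRNA export factors had values of both signs, with a median of 0.01 over 12 genes. Thoc2, the large scaffold of the THO complex, had 56.6 ± 18.3 CPM in WT and 29.5 ± 9.24 CPM in LCS, a log2 difference of −0.94 (SE 0.28, adjusted p = 0.102 by edgeR), or −0.31 with the length and GC offset. Nxt1, the small partner of the export receptor Nxf1, had 4.53 ± 1.84 and 8.44 ± 1.21 CPM, a log2 difference of 0.89 (adjusted p = 0.109 by edgeR), or 0.40 with that offset. Thoc7, a small THO subunit, had 22.4 ± 2.86 and 31.4 ± 2.25 CPM, a log2 difference of 0.49 (adjusted p = 0.111 by edgeR). Its value was −0.15 with the length offset and 0.18 with the length and GC offset. Thoc2 (7622 nt) and Thoc7 (937 nt), of the same complex, had opposite signs as fitted and with the length and GC offset. With the length offset both were below 0, Thoc2 at −0.66.

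Pore-bound proteins outside the symbol rule had a median of 0.18 over 17 genes, with 12 above 0. Ddx19b, the helicase that strips proteins from exported mRNA, had 33.6 ± 5.48 CPM in WT and 23.0 ± 5.92 CPM in LCS, a log2 difference of −0.54 (adjusted p = 0.161 by edgeR), or −0.35 with the length and GC offset. Ahctf1, which encodes ELYS, the factor that seeds pores on chromatin, had −0.36 (adjusted p = 0.244 by edgeR), which turned to 0.0383 with that offset.

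**Figure D5:**
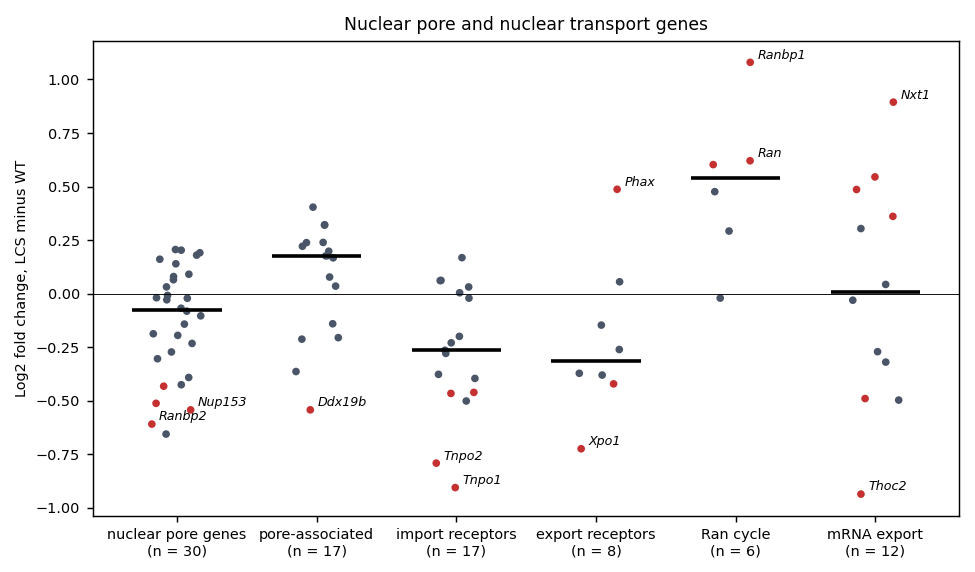
Log2 fold change, LCS minus WT, of the nuclear pore genes and of 5 lists of their partners, with 1 point per gene, a black bar at each median and red points at an unadjusted p under 0.05. Medians run from −0.32 for export receptors to 0.54 for the Ran cycle, and none of these genes had an adjusted p under 0.05 by edgeR.

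Replicates within a genotype also differed in the pore genes. WT replicate 1 was the lowest WT library for 18 of 30 genes and WT replicate 3 the highest for 14. LCS replicate 2 was the highest LCS library for 15. The number of pore genes lower in LCS at an unadjusted p under 0.05 was 7 without WT replicate 1, with Nup155, Nup205 and Nup93 added to the 4, and 1 without WT replicate 3, with 0 higher each time. Over all genes 15.5% and 4.49% were lower in these settings. The pore count was also 1 without LCS replicate 1, LCS replicate 3 or WT replicate 2, and 5 without LCS replicate 2, again with 0 higher. Where it was 1, the gene was Nup153. For the left-out LCS libraries and WT replicate 2, the share over all genes was not counted. Reads of some pore genes may be shared with neighbours, and the strand setting of the counting is not given. By whole gene span, introns included and on either strand, 19 of the 30 overlap another gene in the RefSeq table for GRCm38.p6. An overlap of spans need not touch counted exons, and many of these neighbours are non-coding entries. Among protein-coding neighbours, Nup62 overlaps Atf5 and Il4i1b, Nup98 overlaps Art1 and Pgap2, Tpr overlaps Odr4 and Prg4, Nup88 overlaps Rabep1, Nup43 overlaps Pcmt1, Pom121 overlaps Nsun5 and Nup214 overlaps Fam78a. Sec13, Ranbp2 and Nup50 had no overlapping gene there. The readthrough entry Nup62-il4i1 had 2 to 7 counts per library.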

How the data were processed

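Polyadenylated RNA of islets was measured in 6 libraries, 3 per genotype, each a pool of islets from 3 mice. TRIzol extraction and a stranded TruSeq library kit were used, per the labels' protocols. Tools named in the submitters' processing notes, with no roles, are HTSeq 0.9.0, TopHat2 2.1.1 and Bowtie2 2.2.9, and the build is mm9. The sources used here do not say which annotation or strand setting the counting used. The authors deposited 1 table of raw counts, with no normalisation. Genes carried symbols and NCBI gene numbers.

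Groups came from the labels, replicates were numbered in accession order, and these numbers pair nothing. Genes passing filterByExpr (14539) were fitted with edgeR 4.0.16 (TMM scaling, genotype as the 1 term, quasi-likelihood test, Benjamini-Hochberg adjustment over all tested genes) in R 4.3.3, and called at an adjusted p under 0.05. The common biological coefficient of variation was 21.2%. Intervals of 95% use each gene's standard error and total degrees of freedom. The fit was also run on simulated counts with known changes. These were drawn at the common biological coefficient of variation, without a trend in length or GC content, and no result here rests on them. Alternatives used DESeq2 1.42.0, limma 3.58.1, other filters, left-out libraries, and loess offsets (span 0.5) for length and GC content. Length and GC content are medians over GENCODE M21 protein-coding transcripts paired with a RefSeq mRNA. Figures used matplotlib 3.10.9. The pore genes and partner lists were chosen with earlier results of these data known. Values per library were printed for pore genes with an unadjusted p under 0.05 and for the smallest p in each of 6 structural groups; they were also printed, after their values were seen, for Nup88, Sec13, Ran and Ranbp1; of each partner list up to 3 genes with the smallest p were named, and 1 such gene is not reported here.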

Additional observations from a re-analysis of the deposited data

How the results depend on the processing

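The 4 pore genes with the smallest p stayed below 0 under each of 16 alternative settings: −0.66 to −0.22 for Nup153, −0.91 to −0.11 for Ranbp2, −0.72 to −0.22 for Nup160 and −0.65 to −0.27 for Seh1l. Nup88 stayed above 0 (0.14 to 0.33). Sec13 turned to −0.23 with the length offset and −0.22 with the length and GC offset. Under the same offsets Rangrf turned to −0.0898 and −0.0563, while Thoc7 turned to −0.15 with the first and Ahctf1 to 0.0383 with the second. The offsets take out whatever part of each library's values ran with transcript length or GC content, and the source of that part was not tested. Genes called higher and lower, 300 and 21, became 937 and 571 with DESeq2's Wald test, 560 and 126 with no filter, and 884 and 331 without WT replicates 1 and 2, where the lone WT library is assumed to vary like the LCS libraries. Protein-coding genes alone gave 225 and 14, and on these the length offset gave 24 and 3 and the length and GC offset 85 and 41. Leaving out 1 library gave 81 to 1857 higher and 1 to 1142 lower, the upper ends without WT replicate 1. Pore genes called lower became 1 (Nup153) with the Wald test and 0 to 1 when 1 library was left out, the 1 being without WT replicate 1; pore genes called higher stayed at 0. Transport genes called higher and lower became 3 and 4 with the Wald test and 3 and 2 without WT replicates 1 and 2; 1 was lower (Tnpo2) with no filter, 1 higher (Eny2) with the length and GC offset, and leaving out 1 library gave 0 to 5 and 0 to 8, the upper ends without WT replicate 1. The cause of these moves was not tested. Depth limits Nup210l most, at 6 to 25 counts per library. No paired analysis was possible because the labels give the genotypes no shared replicate numbers.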
